A study of Drosophila melanogaster with 24 samples.

Results

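Of the 5209 Drosophila genes measured here that still carry only a CG number as their symbol, 136 (2.61%) had their highest level in the prepupal genital disc, in females and in males alike. A CG number is the running label that the genome project gave to a predicted gene before anyone named it. The 136 genes are called the CG peak genes below. They were chosen from the values themselves: the mean log2 value at the prepupal stage had to be at least 1.5 above both the larval and the pupal mean, in each sex. Each gene was read from 1 probe set, the one with the highest mean over the 24 arrays where a gene had several. The same rule met 104 of the 6773 genes with other symbols (1.54%), so that 240 of 11982 genes (2%) met it in all. Only 23 CG-number genes met the mirrored rule, with a prepupal mean at least 1.5 below both neighbours.

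The genital disc is the larval epithelium from which the internal and external genitalia and the hindmost segments of the adult fly form. The study hybridised RNA from dissected discs to Affymetrix arrays, 1 array per sample, with 4 biological replicates in each of 6 groups of stage and sex. L3 stands for wandering larvae of the last instar. P6 stands for prepupae about 6 h past puparium formation (APF), staged by the full-sized air bubble, and P20 for pupae about 20 h APF, staged by the first fluorescence in the eye disc. Female and male discs were taken at each stage. Every group, without exception, carried the genotype esgGAL4.B, UAS-GFP.nls/CyO, in which the escargot driver makes discs visible by nuclear green fluorescent protein, so no group lacks the transgenes or the balancer. Animals were raised at 25 C, and each labelling reaction started from 20 ng of total RNA. Values are the deposited log2 summaries per probe set, and n = 4 arrays per group throughout. Because each disc was measured in bulk, fewer cells of a type and less RNA per cell cannot be told apart. The array of L3 male replicate 1 stood apart in midgut markers. Its summed midgut markers reached 10.91 on the log2 scale, against 7.31 to 7.72 in the other L3 males. Without it 135 of the 136 genes met the rule. L3 male replicate 2 stood apart in testis markers, with a summed level of 10.97, against 7.96 to 8.79 in the other L3 males. Without that array 135 of the 136 met the rule too.

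At the end of larval life a pulse of the steroid hormone ecdysone starts metamorphosis. The hormone then falls to a low level in the mid-prepupa, and the nuclear receptor gene ftz-f1 is switched on in that trough, ahead of the next pulse, which brings on head eversion. During the prepupal hours disc epithelia evert, separate from the larval cuticle and lay down the pupal cuticle, a chitin and protein layer that is built at the apical face of the cells and covered by lipids. Secreted proteases, lectins and matrix proteins, and enzymes that make long-chain lipids, belong to the usual equipment of an epithelium that builds cuticle.

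The height of the peak differed widely among the 136 genes. For each gene the smallest of its 4 differences (P6 over L3 and P6 over P20, in each sex) was taken. It was 5 or more in 18 genes, between 3 and 5 in 45, between 2 and 3 in 40 and between 1.5 and 2 in 33. Its median was 2.83 and its maximum 8.36. These figures describe the choice and carry no test. P6 minus L3 had a median of 3.92 in females (range 1.52 to 8.98) and 3.90 in males (1.51 to 8.88). The corresponding medians over all genes were -0.09 and -0.04. P20 minus P6 had a median of -3.53 in females (range -9.03 to -1.67) and -3.27 in males (-8.36 to -1.5), against 0.04 and 0.01 over all genes. The step up exceeded the step down in 88 genes, by the mean of the sexes, and the reverse held in 48.

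**Figure D1:**
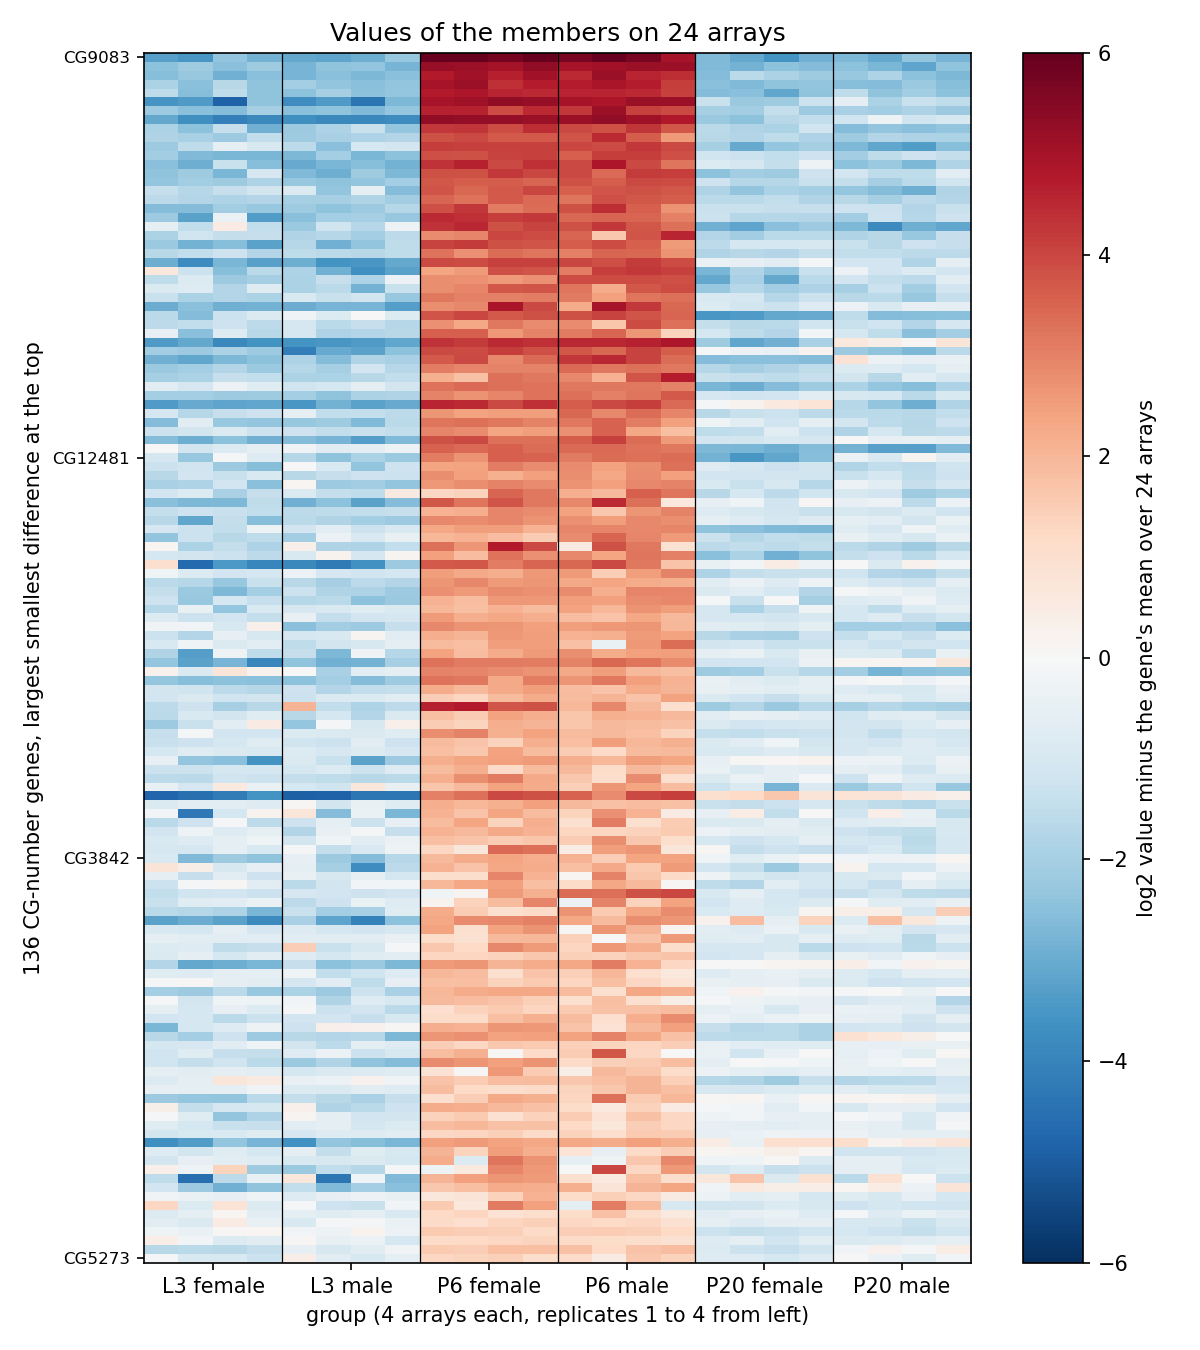
Log2 value of each of the 136 CG peak genes (rows, ordered by the smallest of the 4 differences) on each of the 24 arrays (columns, 4 per group), as the difference from the gene's own mean over all arrays. The 8 P6 columns are red in nearly all rows, and rows near the bottom, where the smallest difference comes close to 1.5, are paler and more uneven between replicates.

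In 122 of the 136 genes all 8 P6 arrays stood above all 16 other arrays. Over all genes 441 (3.68%) had that separation, and since the rule used these means, nothing is read from the contrast. In the other 14 genes at least 1 P6 array lay among the L3 or P20 arrays. The spread at P6 was small for most genes. The larger of the female and male P6 SDs was under 0.5 in 82 genes and over 1 in 20. The most uneven was CG6125, a member of the SLC26 family of anion transporters. It had 5.38, 3.32, 4.95 and 3.30 in L3 females and 3.98, 2.88, 2.78 and 3.97 in L3 males. At P6 it had 5.69, 4.73, 7.23 and 6.60 in females and 3.53, 7.21, 6.02 and 3.15 in males, and no array exceeded 3.29 at P20. Its P6 mean therefore rests on some of the arrays, and CG10853 and CG15870 were about as uneven.

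The gene with the largest measured peak was CG9083. Its values were 3.67, 3.43, 4.54 and 4.07 in L3 females and 3.86, 3.75, 3.96 and 4.65 in L3 males. At P6 they were 12.90, 13.14, 12.65 and 12.93 in females and 12.59, 13.07, 12.63 and 11.88 in males. At P20 they were 4.29, 3.85, 3.34 and 4.04 in females and 4.20, 3.86, 4.54 and 4.13 in males. The lowest P6 array was thus 7.23 log2 units above the highest other array, with a smallest difference of 8.36 as measured. The L3 and P20 values are near the bottom of the scale, where it is not known which probe sets read above background, so the order of such differences holds for the measured values only. CG34115 came next with a smallest difference of 7.48. Its means in females were 4.70 ± 0.21 at L3, 12.18 ± 0.15 at P6 and 4.38 ± 0.15 at P20 (SD). Its means in males were 4.42 ± 0.23, 12.07 ± 0.10 and 4.32 ± 0.34 at the same stages. Its 8 P6 arrays all lay between 11.95 and 12.35. CG34115 and CG15649, whose smallest difference was 6.33, are immediate neighbours on chromosome arm 2R.

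CG17127 had a smallest difference of 6.94, CG32645 of 6.57 and CG14107 of 6.35. CG14107 was also among the 3 genes with the highest P6 means. It measured 13.04 ± 0.16 in P6 females and 12.93 ± 0.16 in P6 males, and it kept a higher level at P20, with 6.16 ± 0.50 in females and 6.58 ± 0.57 in males, than at L3, with 4.35 ± 0.99 and 4.34 ± 0.70. CG15080 had a smallest difference of 5.83 and CG15615 of 5.47. These last genes were assigned no role here, which does not show that none is known.

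**Figure D2:**
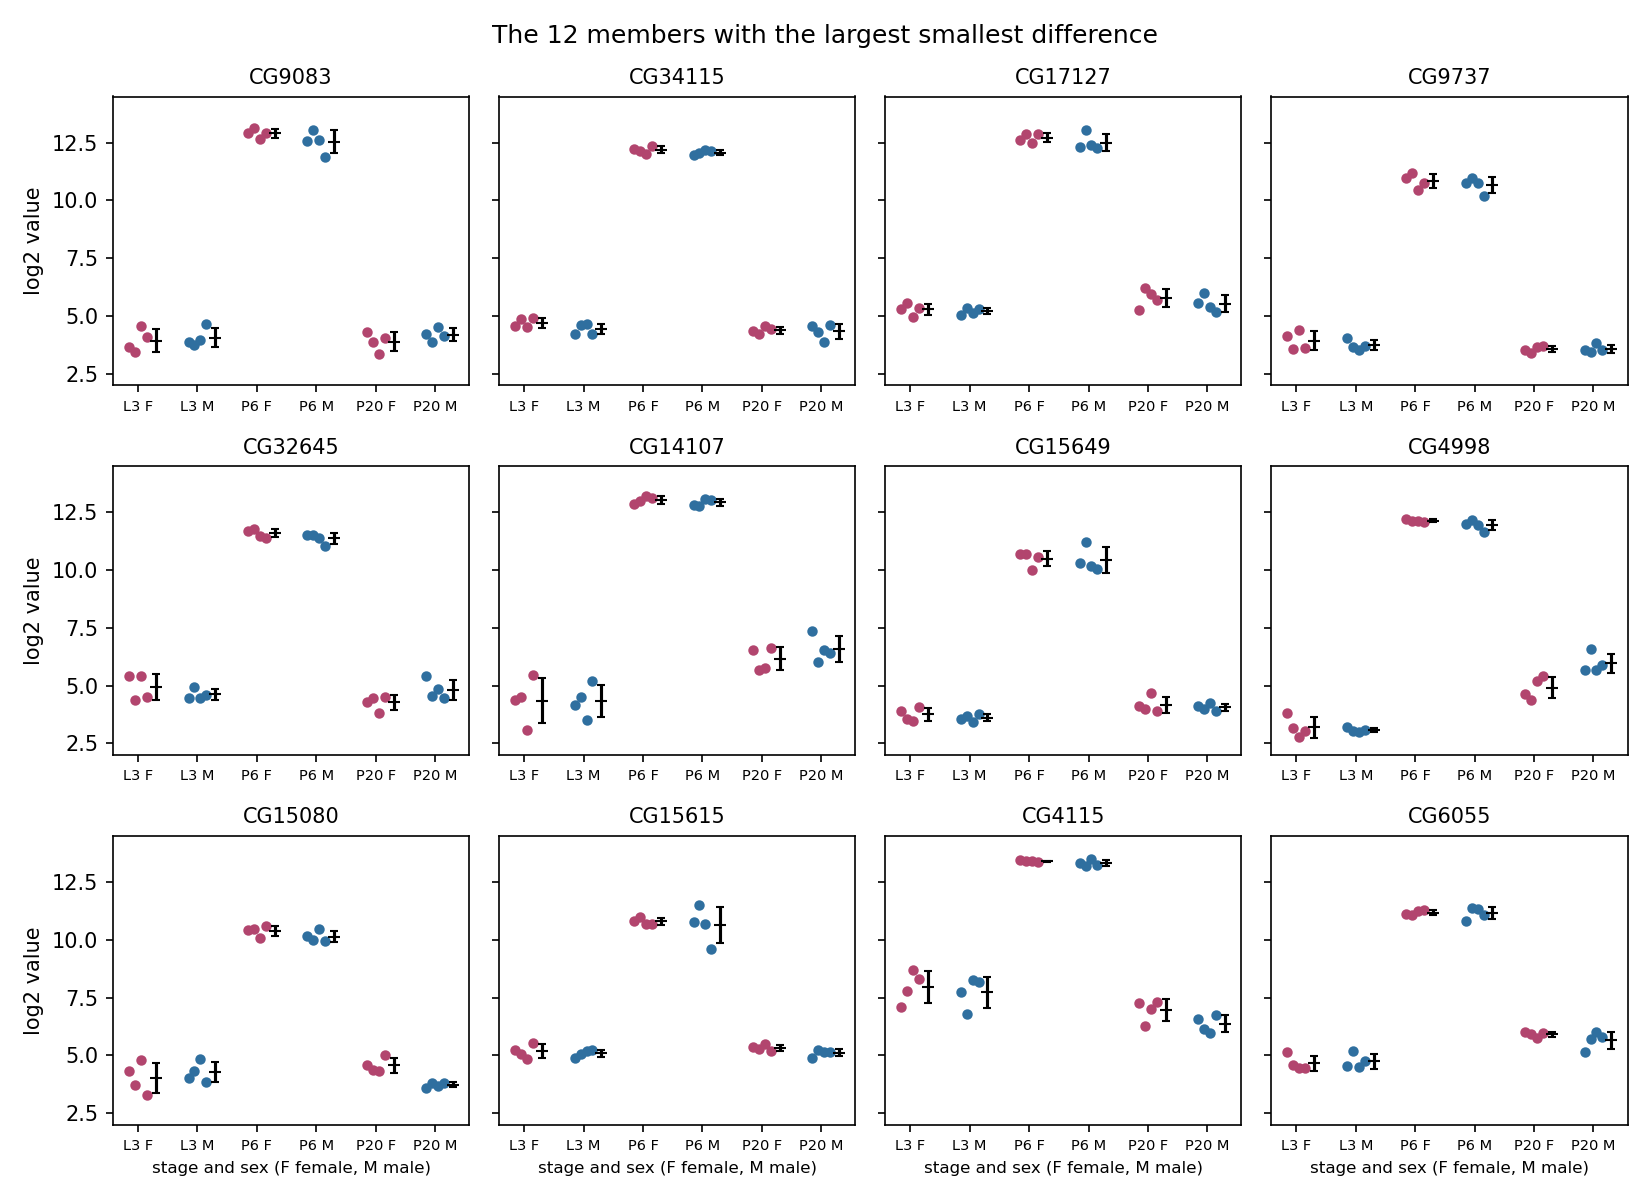
Log2 values of the 12 CG peak genes with the largest smallest difference, by group (4 points per group, with mean and SD at the right of the points; F female, M male). The P6 points lie between 9.59 and 13.52 and those of the other groups between 2.76 and 8.69, with the CG4115 points the highest outside P6.

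A role was assigned to 39 of the 136 genes, from a synonym in the reference annotation or from a well-known protein domain class. The other 97 were assigned none. The assignment was not exhaustive: CG10657, whose domain is named below, is among the 97. The class sizes below count assigned genes only. The label uncharacterised therefore holds for the symbol and only in part for the protein. The roles were assigned with the values in view and carry no test.

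Secreted serine proteases and their inactive homologues made up 8 of the 39. Such proteases act in cascades that cut and activate one another in the space outside the cell. Their smallest differences, the values on which the genes were chosen, had a median of 4.43. CG9737, also called SP5, had 4.14, 3.56, 4.39 and 3.63 in L3 females and 4.02, 3.66, 3.54 and 3.69 in L3 males. It had 10.98, 11.19, 10.46 and 10.77 in P6 females and 10.74, 10.96, 10.77 and 10.18 in P6 males. By P20 it lay between 3.41 and 3.83 on all 8 arrays, as low as before. CG4998, a protease homologue known as SPH66, had a smallest difference of 6.00, CG8172 (SP32) of 5.13 and CG7432 (SP19) of 5.12. The remaining 4 proteases had lower peaks. CG8170 (SP54) had 3.75, CG11836 (SP23) 2.0, CG3505 (SPH9) 1.93 and CG14892 (SP175) 1.77. CG11836 had a high level throughout, with L3 means of 9.01 in both sexes and P6 means of 11.19 in females and 11.33 in males.

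Proteins with a C-type lectin domain, which binds sugars, numbered 4. CG4115 had 7.10, 7.79, 8.69 and 8.31 in L3 females and 7.73, 6.80, 8.25 and 8.18 in L3 males. It had 13.44, 13.41, 13.40 and 13.38 in P6 females and 13.32, 13.19, 13.52 and 13.26 in P6 males, and 5.95 to 7.31 at P20. The P6 arrays were close to one another, and no P6 mean among the 136 genes was higher. CG6055 had a smallest difference of 5.27, CG9095 of 3.60 and CG11211 of 3.44.

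Enzymes of oxidation and reduction numbered 5. CG9517, whose synonym GMCepsilon1 places it among the glucose-methanol-choline oxidoreductases, had the largest smallest difference of them, 4.67, with means of 2.86 and 2.82 at L3, 7.53 and 7.56 at P6, and 2.72 and 2.87 at P20 in females and males. It is the 1 gene of the 136 with no entry under its own symbol in the Release 6 gene table, where the symbol no longer stands alone, so its probe set may read more than 1 present-day gene. The haem peroxidase CG10211 had a smallest difference of 3.42. The short-chain dehydrogenases CG2070, CG13284 and CG3842 had 3.29, 3.20 and 2.25.

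Lipid enzymes numbered 8, with a median smallest difference of 2.45. CG5065 (FAR1) and CG12268 are fatty acyl-CoA reductases, which turn fatty acids into alcohols. CG5065 had means of 4.39 and 4.30 at L3, 7.60 and 7.58 at P6, and 3.73 and 3.65 at P20 in females and males. CG12268 had 6.49 and 6.92 at L3, 11.49 and 11.29 at P6, and 9.22 and 9.28 at P20, so the 2 reductases parted after the peak, the first going back below its larval level and the second staying above it. CG9747, a fatty acid desaturase, likewise stayed high, as given below. The lipases CG6753, CG18641, CG6847 and CG31871 had smallest differences of 3.08, 2.96, 2.89 and 1.81, and the sphingomyelinase CG3376 (aSMase) had 1.83.

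Membrane transporters numbered 7 and had a median of 2.42, led by the ABC transporter CG11147 with 4.23. CG1698, a sodium-coupled amino acid transporter also called DmNAT5, had 3.36. Metallocarboxypeptidases numbered 4, with CG4678 at 3.15, CG8539 at 2.40, CG3108 at 2.10 and CG3097 at 1.67. CG3097 had a high level before the peak too, with L3 means of 10.22 and 10.34 in females and males. Genes with a protease inhibitor domain numbered 3 and had a median of 1.91: CG16704 (Kunitz type) 2.38, CG32354 (Kazal type) 1.91 and CG15369 (cystatin) 1.60.

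At the edge of the rule stood CG18135 with a smallest difference of 1.51, CG6739 with 1.51 and CG5273 with 1.5. Just outside it stood CG34236 with 1.47, CG1909 with 1.43 and CG8568 with 1.43. CG18135, for example, had means of 8.07 and 7.93 at L3, 9.61 and 9.43 at P6, and 7.57 and 7.64 at P20 in females and males. The boundary therefore parts genes with nearly the same profile.

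The level after the peak, compared with the level before it, was not set by the rule, which only kept both under the P6 level. P20 minus L3 was tested with limma over all genes, at an adjusted p under 0.05. In females 42 of the 136 genes were higher at P20 and 18 lower, while in males 41 were higher and 13 lower. The background over all genes was 17.7% higher and 22.2% lower in females and 17.8% higher and 20.3% lower in males. Calls in either direction took in 44.1% of the CG peak genes in females and 39.7% in males, against 39.9% and 38.1% of all genes, so the share that changed was near the background while the balance leaned towards higher at P20. Genes higher in both sexes numbered 31 (22.8%, against 13.9% of all genes) and genes lower in both 12 (8.82%, against 16.8%). The 67 called in neither sex (49.3%) were near the background of 52.8%.

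CG4702 had the largest P20 minus L3 difference. It had 3.79, 4.06, 4.34 and 4.96 in L3 females and 3.67, 3.71, 4.23 and 4.21 in L3 males. It had 11.60, 11.85, 12.51 and 12.39 in P6 females and 12.12, 11.40, 12.54 and 12.71 in P6 males, and 9.52, 9.76, 10.16 and 9.33 in P20 females and 9.40, 9.32, 9.03 and 8.87 in P20 males. All P20 arrays lay far above all L3 arrays and below all P6 arrays. P20 minus L3 was 5.40 ± 0.28 in females (SE; limma adjusted p = 2.38e-12) and 5.20 ± 0.28 in males (limma adjusted p = 4.19e-12). The desaturase CG9747, which puts double bonds into fatty acids, rose in the same way, by 3.54 ± 0.31 in females (limma adjusted p = 8.94e-09) and 3.45 ± 0.31 in males (limma adjusted p = 1.43e-08). Its P20 means were 10.41 ± 0.69 and 10.53 ± 0.36, against L3 means of 6.86 ± 0.58 and 7.08 ± 0.56 (SD, females before males). CG43333 rose by 2.77 ± 0.22 in females (limma adjusted p = 2.97e-09) and 2.10 ± 0.22 in males (limma adjusted p = 1.99e-07). The protease homologue CG4998 rose by 1.72 ± 0.22 in females (limma adjusted p = 3.19e-06) and 2.88 ± 0.22 in males (limma adjusted p = 1.86e-09).

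The serine protease CG8170 fell furthest below its larval level. It had 7.93, 6.83, 7.12 and 7.40 in L3 females and 7.75, 7.27, 7.37 and 7.65 in L3 males. It had 11.50, 11.34, 11.53 and 11.28 in P6 females and 11.35, 11.34, 11.20 and 11.13 in P6 males, and 5.26, 5.20, 5.02 and 5.36 in P20 females and 5.13, 4.69, 4.71 and 5.28 in P20 males. No P20 array reached any L3 array. P20 minus L3 was -2.11 ± 0.18 in females (SE; limma adjusted p = 7.76e-09) and -2.56 ± 0.18 in males (limma adjusted p = 4.08e-10). CG10657, which has the CRAL-TRIO domain of proteins that carry small lipids, fell by 1.93 in females (SE 0.18; limma adjusted p = 3.93e-08) and by 1.19 in males (limma adjusted p = 3.19e-05). CG12164 fell by 1.66 in females (SE 0.29; limma adjusted p = 8.91e-05) and by 1.79 in males (limma adjusted p = 4.32e-05). CG7530 fell by 1.19 in females (SE 0.14; limma adjusted p = 7.14e-07) and by 1.05 in males (limma adjusted p = 4.07e-06). CG4115, at -1.01 ± 0.31 in females (limma adjusted p = 0.0128), lost its call without replicate 3 of the L3 females or replicate 2 of the P20 females (adjusted p up to 0.0635).

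CG12481 and CG15756 were called in opposite directions in the sexes. CG12481 had P20 minus L3 of -1.97 ± 0.33 in females (limma adjusted p = 7.14e-05) and 1.62 ± 0.33 in males (limma adjusted p = 0.000634). CG15756 had -1.46 ± 0.48 in females (limma adjusted p = 0.0187) and 1.42 ± 0.48 in males (limma adjusted p = 0.0229). Its L3 male arrays were uneven, at 7.96, 6.55, 4.83 and 6.98, and overlapped those of P20 males, at 8.78, 7.52, 7.49 and 8.21. Opposite calls were rare in general, at 0.0918% of all genes.

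**Figure D3:**
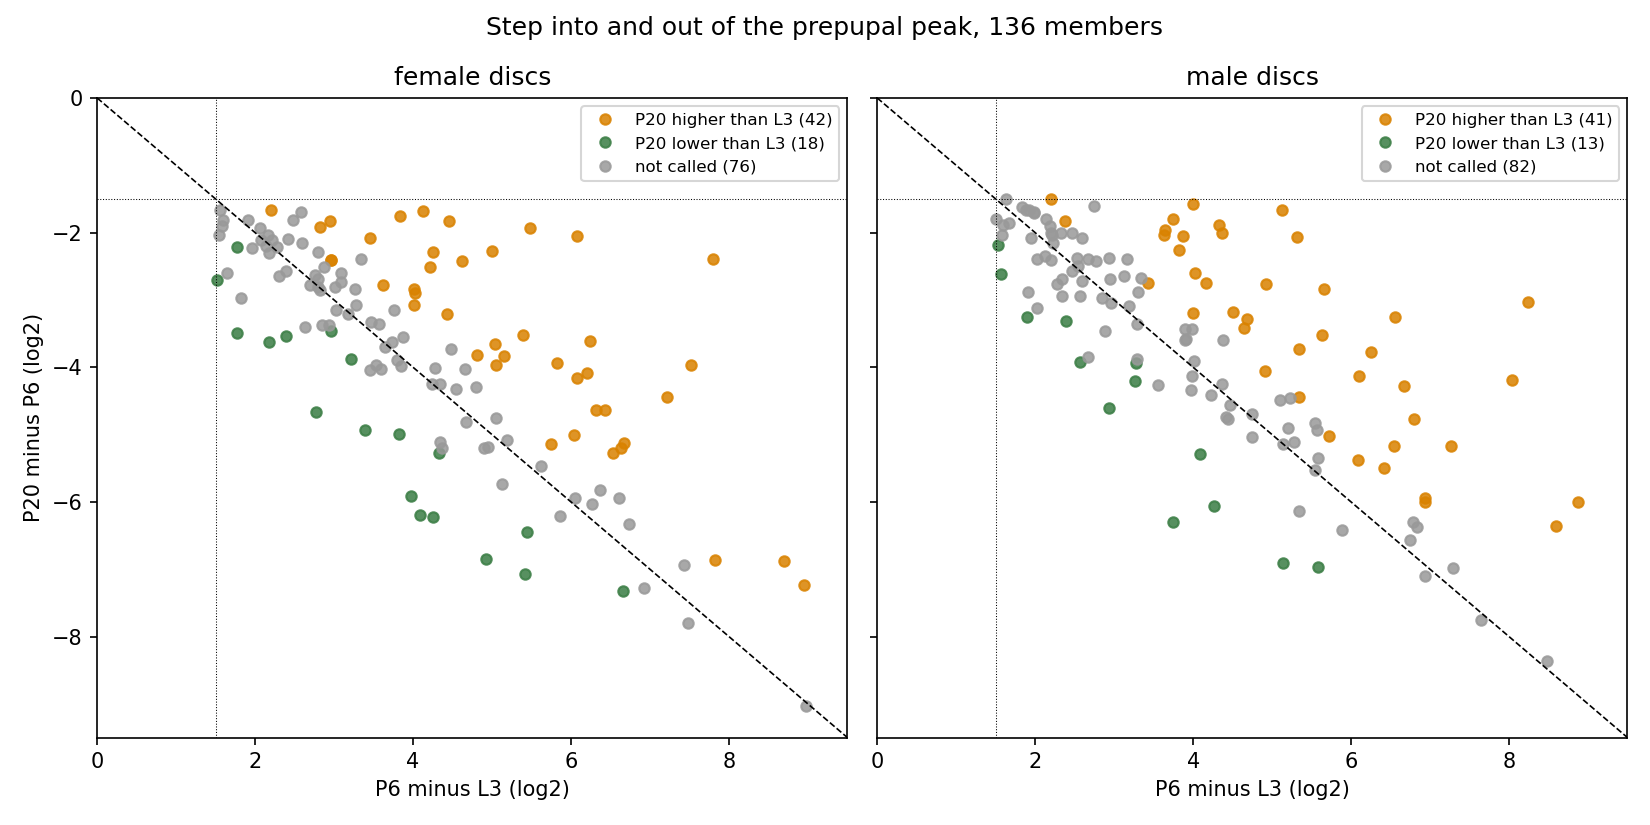
P20 minus P6 (vertical axis, log2) against P6 minus L3 (horizontal axis, log2) for the 136 CG peak genes, in females on the left and in males on the right. The dashed line marks a fall as large as the rise, and dotted lines mark the threshold of 1.5. Orange points, which lie above the dashed line, are the 42 genes in females and 41 in males called higher at P20 than at L3, and green points are the 18 and 13 called lower.

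In most CG peak genes the measured difference between the sexes was small. The female minus male difference was under 0.5 in size in 106 of the 136 genes at L3, in 103 at P6 and in 95 at P20. Calls numbered 4 at L3 (3 higher and 1 lower in females), 8 at P6 (5 higher and 3 lower) and 14 at P20 (5 higher and 9 lower). These are 2.94%, 5.88% and 10.3% of the 136 genes. Over all genes the shares called were 0.985% at L3 (0.367% higher and 0.618% lower in females), 4.83% at P6 (1.11% higher and 3.72% lower) and 2.35% at P20. At P6 the share was near the background, and at P20 it was above it. By direction, 0.701% of all genes were higher and 1.65% lower in females at P20. In all 21 genes (15.4%) were called at 1 stage or more, 0 at all 3 stages and 115 (84.6%) at none. Over all genes these shares were 6.36%, 0.284% and 93.6%. With a replicate block within each stage, pairing same-numbered female and male arrays, calls numbered 11 at L3, 13 at P6 and 21 at P20, with the 4, 8 and 14 among them. The labels give replicate numbers and no pairing, and by correlation the numbers match the arrays only in part at every stage. At P20 the same-numbered array had the highest r for replicates 2, 3 and 4. Male replicate 1 had r = 0.113 with female replicate 1 and 0.117 with female replicate 3. At L3 the same-numbered r was highest for replicates 1, 2 and 3, and at P6 for replicates 1 and 4. Unlike numbers could reach a similar r: L3 female replicate 4 and male replicate 3 had 0.241, against 0.237 for P20 replicate 3. Whether arrays were paired is therefore not known. The main fit holds no pairing. In a fit to the 8 L3 arrays alone 0 of the 4 L3 calls were left. A p above the threshold does not show that the sexes were alike. At P6 the difference was positive in 93 of the 136 genes (68.4%, against 47.8% of all genes), with a median of 0.09.

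The prepupal stage itself, where all 136 genes peak, had 8 sex calls. CG3108, a metallocarboxypeptidase, had the largest difference. It had 5.18, 5.59, 7.97 and 7.55 in P6 females and 8.78, 8.76, 9.25 and 9.45 in P6 males. The female arrays split into a lower and a higher pair, and all lay below the male ones. The difference was -2.49 ± 0.40 (SE; limma adjusted p = 0.000339). CG11382 went the other way, with 10.69, 10.86, 9.88 and 9.89 in P6 females and 8.09, 8.95, 8.01 and 7.08 in P6 males, a difference of 2.30 ± 0.56 (limma adjusted p = 0.0159). Without replicate 1 or 2 of the P6 females, or replicate 4 of the P6 males, it was no longer called (adjusted p up to 0.06).

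CG31145 was higher in females at P6, by 1.18 ± 0.18 (limma adjusted p = 0.000165), with 8.91, 8.70, 8.55 and 8.77 in females and 7.22, 7.50, 7.57 and 7.91 in males. It was also higher in females at L3, by 0.90 ± 0.18 (limma adjusted p = 0.008), but not with the mean of its probe sets or in a fit to the L3 arrays alone (adjusted p up to 0.168). CG13272 was higher in females by 1.28 ± 0.29 at P6 (limma adjusted p = 0.00932) and by 1.31 ± 0.29 at P20 (limma adjusted p = 0.0117). CG7080 had 10.18, 10.12, 9.96 and 10.12 in P6 females and 11.30, 11.30, 11.31 and 11.27 in P6 males. The P6 groups were tight and far apart, but the shared estimate of spread, which the other stages widen, gave -1.20 ± 0.34 (limma adjusted p = 0.047). That call ended without any 1 of the 8 P6 arrays, or without any of 6 arrays of other groups (replicates 1 and 4 of the L3 females, 2 of the L3 males and 1, 2 and 3 of the P20 males), with adjusted p up to 0.124. The amino acid transporter CG1698 was lower in females by 1.09 (SE 0.29; limma adjusted p = 0.0291), CG34382 was higher by 0.84 ± 0.22 (limma adjusted p = 0.0232) and CG12947 higher by 0.70 ± 0.18 (limma adjusted p = 0.0215). CG1698 lost its call without P6 female replicates 1, 3 or 4 or P6 male replicates 2 or 3 (adjusted p up to 0.146). CG34382 lost it without P6 female replicates 1 or 2 or P6 male replicates 3 or 4 (up to 0.108), and CG12947 without P6 female replicates 1 or 2 or P6 male replicate 2 (up to 0.101). Of the 8 calls 3 were left without replicate 1 of the P6 females and 4 without replicate 2. CG1698 and CG7080 were also not called after median centring. In a fit to the 8 P6 arrays alone CG3108 (adjusted p = 0.0615), CG13272 (adjusted p = 0.162), CG34382 and CG12947 missed the threshold.

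The labels name the discs alone, and testis markers were among the lists read to check for other tissue. Their summed level, on the log2 scale, was 8.03 to 8.81 in P6 females and 9.57 to 12.18 in P6 males, and 7.80 to 8.01 in P20 females and 9.28 to 11.58 in P20 males. At L3 it was 7.72 to 9.15 in females and 7.96 to 10.97 in males, where replicate 2 was the highest. Of the 16 measured markers 9 were lower in females at P6 and 4 at P20. At L3 0 were called, with a list median of female minus male of -0.67. Over all genes 0.618% were lower in females at L3, 3.72% at P6 and 1.65% at P20. The P6 male replicates had summed levels of 10.57, 11.63, 12.18 and 9.57. For CG3108, CG1698 and CG7080, and for the genes lower in P20 females, the part of such tissue was not tested.

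By P20 the sexes differed more. CG14866 had 4.89, 3.90, 4.14 and 5.08 in P20 females and 7.65, 7.37, 7.10 and 7.76 in P20 males. No female array reached a male one, and the difference was -2.97 ± 0.21 (SE; limma adjusted p = 2.96e-09). At P6, by contrast, it had 11.35, 11.20, 11.49 and 11.40 in females and 11.56, 11.57, 11.65 and 11.86 in males. CG6431 was the reverse at P20, with 6.51, 6.82, 7.21 and 7.43 in females and 4.89, 4.23, 3.70 and 4.79 in males, a difference of 2.59 ± 0.24 (limma adjusted p = 1.78e-07). CG9411 had 9.03, 8.73, 8.61 and 9.27 in P20 females and 6.91, 6.67, 6.40 and 7.44 in P20 males, a difference of 2.05 ± 0.26 (limma adjusted p = 1.32e-05). It too was already higher in L3 females, by 1.13 ± 0.26 (limma adjusted p = 0.0284), but that call ended without any 1 of the L3 arrays except male replicate 4 (adjusted p up to 0.489).

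CG13045 had 4.26, 4.15, 4.02 and 3.97 in P20 females and 5.92, 5.66, 6.42 and 5.96 in P20 males, a difference of -1.89 ± 0.20 (limma adjusted p = 1.1e-06). CG14327 had 5.92, 6.01, 5.99 and 5.90 in P20 females and 9.36, 8.18, 8.02 and 8.11 in P20 males, a difference of -2.46 ± 0.28 (limma adjusted p = 3.81e-06). The female arrays of CG14327 were back in the range of the L3 females, 5.42 to 6.03, while those of CG13045 lay below theirs, 5.19 to 6.37. The others lower in P20 females were CG12481 (-2.56), CG32694 (-2.15), CG6739 (-1.29), CG4666 (-1.23), CG4998 (-1.05) and CG13699 (-0.96). CG4998 missed the threshold in a fit to the P20 arrays alone (adjusted p = 0.0572). The others higher in P20 females were CG14397 (1.42), CG11380 (1.41) and CG13272. CG11380 was higher in L3 females too, by 1.76 ± 0.23 (limma adjusted p = 6.7e-05), and CG6739 was lower in L3 females by 1.02 (SE 0.17; limma adjusted p = 0.00146). At P6 neither was called: CG11380 had a difference of 0.23 and CG6739 of 0.05.

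**Figure D4:**
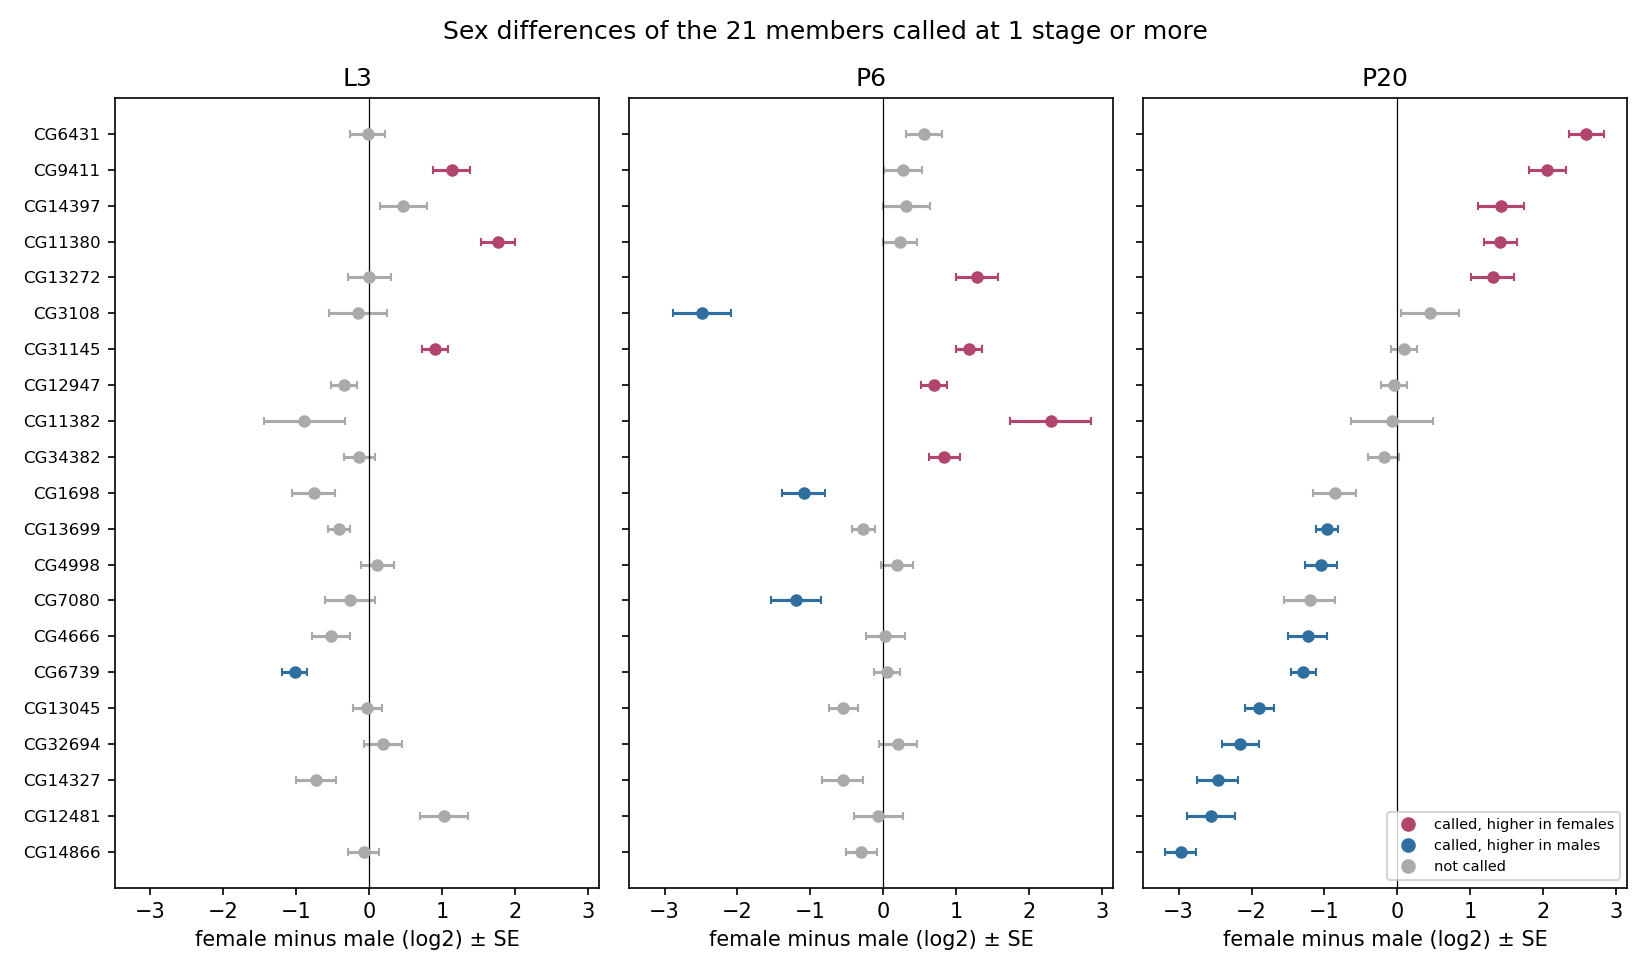
Female minus male difference (log2, point) with its SE (bar) at L3, P6 and P20 for the 21 CG peak genes called at 1 stage or more. Red points are called higher in females, blue points higher in males and grey points are not called, and the spread of the points about 0 is widest at P20, from -2.97 to 2.59.

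Whether the sex difference itself changed between stages was tested as an interaction. From P6 to P20 it changed in 10 of the 136 genes, 3 upward and 7 downward (7.35%, against 1.15% of all genes, 0.492% upward and 0.659% downward). CG14866 changed by -2.67 ± 0.30 (limma adjusted p = 1.33e-05), CG32694 by -2.35 ± 0.36 (limma adjusted p = 0.000564) and CG12481 by -2.49 ± 0.47 (limma adjusted p = 0.00456). Upward, CG6431 changed by 2.04 ± 0.34 (limma adjusted p = 0.00134), CG9411 by 1.78 ± 0.36 (limma adjusted p = 0.00891) and CG3108 by 2.93 ± 0.56 (limma adjusted p = 0.00545). At P20, unlike at P6, CG3108 was not called between the sexes and had 4.47 ± 0.29 in females and 4.03 ± 0.20 in males (SD). From L3 to P6 the sex difference changed in 2 genes (1.47%, against 0.81% of all genes), CG11380 and CG6739, and in 9 with a replicate block within each stage. Both had a difference at L3 and at P20 in the same direction and little at P6, that is, the sexes were closest at the peak. Without L3 female replicate 4 both calls were lost. The CG11380 call also ended without L3 male replicate 3, P6 female replicate 4 or P6 male replicates 2 or 3, or after median centring, and neither gene was called in a fit to the L3 and P6 arrays alone (adjusted p up to 0.106). The CG6739 call held only without L3 male replicate 2, P6 female replicate 2 or P6 male replicates 1 or 4 among the 16 arrays of these stages (adjusted p up to 0.0854 without the others). The CG31145 change from P6 to P20, -1.09 ± 0.25 (limma adjusted p = 0.0274), was lost without P6 female replicates 1, 2 or 4, P6 male replicates 1, 2 or 3, P20 female replicates 1 or 4 or P20 male replicates 2 or 3, or with the mean of probe sets (adjusted p up to 0.0767).

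For 126 of the 136 genes only 1 probe set was assigned to the gene alone. The other 10 had 13 further probe sets between them, which read the same gene through other probes, on the same arrays and RNA. Of the 13, 2 met the rule and 8 had all 4 differences above 0. CG13737 had a smallest difference of 3.96 with the probe set used and 4.62 with the other. CG43386 had 3.77 and 4.35. For CG43102 the probe set used had P6 minus L3 of 4.25 in females and 3.64 in males, another had 2.45 and 1.83, and the remaining 2 had 0.19 and 0.15, and 0.29 and -0.02. For CG34382, CG42329, CG2930 and CG31145 the other probe set was near 0 in both sexes, between -0.38 and 0.42. Those flat probe sets were dim, with group means under 4 in all 6 groups, so that for these 4 genes the peak rests on 1 probe set. CG34355 had 0.63 and 0.80, and CG33978 had 1.11 and 0.42. The other probe set of CG33978 was not dim, with group means of 6.84 to 8.13, against 6.41 to 9.02 for the one used. Its smallest difference was 0.16, so the place of CG33978 among the CG peak genes depends on the probe set chosen.

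CG32694 had 3 probe sets that disagreed after the peak. With the one used, P20 minus P6 was -4.24 in females and -1.89 in males. With another it was -1.26 in females but 0.89 in males, so in males that probe set was highest at P20, with a mean of 8.02, against 7.13 at P6. The third had -1.04 and -0.86. Its sex difference at P20 therefore appears in 2 of the 3 probe sets.

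**Figure D5:**
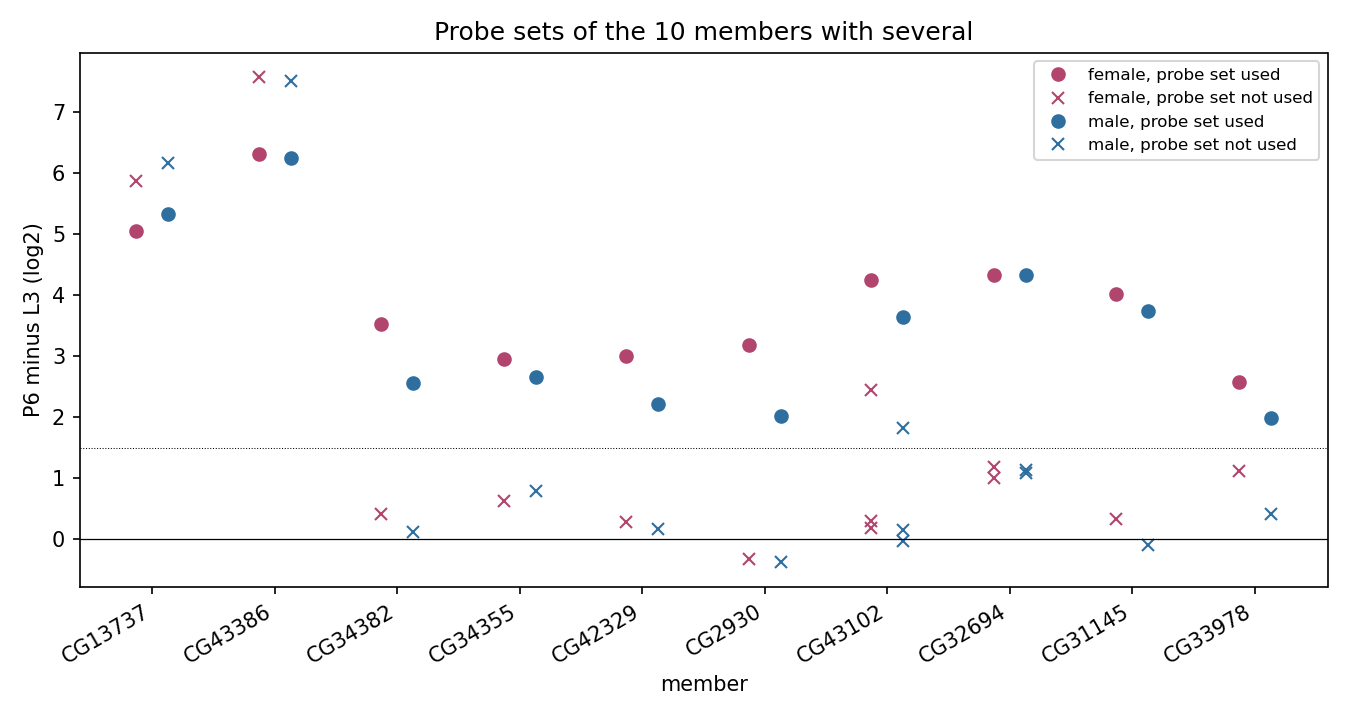
P6 minus L3 (log2) in females (red) and males (blue) for the 10 CG peak genes with several probe sets, for the probe set used (circles) and the others (crosses). The dotted line is the threshold of 1.5. The crosses of CG13737 and CG43386 lie above their circles, at 5.87 and 6.18 and at 7.57 and 7.51, and those of CG34382, CG42329, CG2930 and CG31145 lie near 0.

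Position in the genome was not used by the rule. The share of the CG peak genes on the X chromosome was 20% (27 genes), against 17.1% of all CG-number genes. Arm 3R held 35, 2R and 3L held 25 each, 2L held 22 and chromosome 4 held 1. Of the 135 genes that could be placed, 15 (11.1%) had another CG peak gene as their next protein-coding gene on the chromosome. Among the other 5002 CG-number genes placed, 106 (2.12%) had a CG peak gene beside them. The 8 adjacent pairs were CG31871 with CG17104 on 2L, CG15649 with CG34115 and CG30273 with CG30269 on 2R, CG34265 with CG14960, CG14960 with CG12017 and CG7330 with CG13699 on 3L, and CG11816 with CG32631 and CG9411 with CG12540 on X. No probe set is shared between the genes of a pair.

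Deviations from the group means, which hold no stage or sex effect, had r = 0.64 over the 24 arrays for CG30273 and CG30269, 0.42 for CG11816 and CG32631 and 0.37 for CG14960 and CG12017, and between -0.32 and 0.04 for the other 5 pairs. These r values are descriptions, since all pairs were read on the same arrays. Beside the CG peak genes lay 219 other measured genes, of which 106 carry CG numbers and so could not meet the rule. Among the rest, 8 met the same rule: Cyp303a1, ImpL1, Ptr, Scp2, St2, Tie, geko and pwn. Over all genes with other symbols, 104 of 6773 (1.54%) met it, and the difference was not tested. ImpL1 is an ecdysone-inducible gene, and Cyp303a1 is a cytochrome P450. The smallest difference was 5.15 for Ptr, 4.22 for St2, 3.53 for Cyp303a1, 3.29 for ImpL1, 2.79 for geko, 2.18 for Scp2, 2.12 for Tie and 1.90 for pwn.

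Among the named genes that met the rule, likeness was measured by Pearson's r over the 24 arrays with the mean standardised profile of the CG peak genes. The most alike was slbo (0.996), a C/EBP transcription factor known from border cell migration in the ovary. It had means of 3.67 ± 0.39 and 3.58 ± 0.30 at L3, 10.15 ± 0.20 and 9.95 ± 0.13 at P6, and 3.86 ± 0.20 and 3.71 ± 0.15 at P20 (SD, females before males). St1, a sulfotransferase gene, followed at 0.994. Then came Osi9, Osi5, Osi7 and Osi17 of the Osiris family of insect membrane proteins, together with snsl and Lip1, of which Lip1, a lipase, was the last at 0.991. These r values carry no test, since the genes were chosen by the same rule. Of the 23 Osiris genes measured 11 met the rule, as did 4 of 4 St genes, 7 of 84 Cyp genes, 2 of 5 spätzle family genes and 1 of 24 Tweedle cuticle genes. Over all genes with other symbols 1.54% met it. The families were not among the lists set beforehand, so the counts describe the choice and carry no test. For Osi7 the P6 mean was 11.96 ± 0.16 in females and 11.65 ± 0.76 in males.

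The stage of the arrays was read from genes of the hormone cascade, chosen from a list and not by the rule. In the ecdysone cascade 16 of 19 genes were measured. From L3 to P6 6 rose and 3 fell in females, and 5 rose and 4 fell in males. Over all genes 14.6% rose and 21% fell in females, and 16.3% rose and 18.5% fell in males. The list median of P6 minus L3 was 0.19 in females and 0.11 in males, against -0.09 and -0.04 over all genes. The receptor gene ftz-f1, which marks the mid-prepupa, rose by 4.52 ± 0.27 in females (limma adjusted p = 7.63e-12) and 4.18 ± 0.27 in males (limma adjusted p = 3.27e-11). Its means were 6.36 and 6.61 at L3, 10.88 and 10.79 at P6, and 7.84 and 7.80 at P20 in females and males. Kr-h1, which acts downstream of juvenile hormone, fell by 6.47 in females (limma adjusted p = 2.7e-13) and 5.76 in males (limma adjusted p = 2.42e-12). Cyp18a1, the enzyme that inactivates ecdysone, rose by 3.45 ± 0.29 in females (limma adjusted p = 2.65e-09) and 4.14 ± 0.29 in males (limma adjusted p = 1.26e-10). Eip93F, a gene of the later pupal response, rose at P6 and again at P20, where P20 minus P6 was 5.27 ± 0.28 in females (limma adjusted p = 1.19e-12) and 4.47 ± 0.28 in males (limma adjusted p = 2.26e-11).

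From P6 to P20 the cascade had 4 genes that rose and 5 that fell in females, and 4 that rose and 7 that fell in males. Over all genes 14.2% rose and 12.1% fell in females, and 13.1% rose and 12.6% fell in males. Hr3, the receptor gene upstream of ftz-f1, fell by 4.55 in females (limma adjusted p = 5.59e-07) and 4.31 in males (limma adjusted p = 1.32e-06). Of 14 measured ecdysone-induced effector genes (of 16 listed), 10 rose and 1 fell from L3 to P6 in females, and 7 rose and 1 fell in males. From P6 to P20 0 rose and 5 fell in females, and 3 rose and 7 fell in males. ImpL1 had P6 minus L3 of 6.66 ± 0.15 in females (limma adjusted p = 9.56e-19) and 5.92 ± 0.15 in males (limma adjusted p = 4.95e-18). Edg78E, a pupal cuticle protein gene, had 6.21 ± 0.32 and 5.55 ± 0.32, and Sb, a transmembrane protease needed for disc eversion, had 3.72 ± 0.21 and 3.71 ± 0.21. The 1 that fell was Ddc, the dopa decarboxylase of cuticle hardening, with -2.39 ± 0.47 in females (limma adjusted p = 0.000372) and -2.63 ± 0.47 in males (limma adjusted p = 0.000167).

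Of 21 measured genes for chitin and the apical matrix (of 24 listed), 16 rose and 4 fell from L3 to P6 in females, and 16 rose and 3 fell in males. From P6 to P20 10 fell and 5 rose in females, and 9 fell and 3 rose in males. The list medians of P6 minus L3 were 1.30 in females and 1.15 in males, against -0.09 and -0.04 over all genes. Over all genes 14.6% rose and 21% fell from L3 to P6 in females, and 16.3% rose and 18.5% fell in males. From P6 to P20 14.2% rose and 12.1% fell in females, and 13.1% rose and 12.6% fell in males. The zona pellucida domain gene dyl shared the course of the CG peak genes, with P6 minus L3 of 8.27 ± 0.32 in females and 6.92 ± 0.32 in males and P20 minus P6 of -6.79 ± 0.32 and -4.81 ± 0.32. Its relative dy rose by 7.88 in females at P6, and its P20 minus P6 was -0.92 there (limma adjusted p = 0.059). The chitin deacetylase genes verm and serp rose by 3.82 and 2.16 in P6 females, and P20 minus P6 fell by 4.87 and 4.30. Of 27 measured larval and pupal cuticle protein genes (of 35 listed), 11 rose and 4 fell in females at P6, and 10 rose and 5 fell in males. From P6 to P20 5 rose and 7 fell in females, and 4 rose and 5 fell in males. The cuticle list medians of P6 minus L3 were only 0.12 in females and 0.21 in males. TwdlT had P6 minus L3 of 7.64 ± 0.35 in females and 7.49 ± 0.35 in males, and Cpr78Cc had 5.91 ± 0.44 and 5.32 ± 0.44. Pcp, another pupal cuticle gene, had -4.02 ± 0.30 and -1.28 ± 0.30 instead. Edg78E, Edg84A and Edg91 stand in both the effector and the cuticle list, so the counts of these lists overlap.

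Markers of other tissues were read beside the peak. The summed level of 14 genital disc markers lay between 13.04 and 13.75 on all arrays, although single markers moved. From L3 to P6 2 rose and 7 fell in females and 3 rose and 4 fell in males. From P6 to P20 8 rose and 2 fell in females and 6 rose and 3 fell in males. Over all genes 14.6% rose and 21% fell from L3 to P6 in females, and 16.3% rose and 18.5% fell in males. The shares from P6 to P20 were 14.2% and 12.1% in females and 13.1% and 12.6% in males. The fat body list, of which 7 genes were measured, had 12.10 to 14.01 in L3 females and 10.91 to 14.12 in L3 males, 14.10 to 14.70 in P6 females and 13.79 to 14.65 in P6 males, and 13.64 to 14.33 in P20 females and 12.98 to 14.24 in P20 males. From L3 to P6 2 of the 7 rose and 3 fell in females, and 3 rose and 1 fell in males. Fbp1 stands in this list and in the effector list. L3 male replicate 1 had the highest fat body level of the L3 arrays, 14.12. The midgut list, of which 10 genes were measured, had a summed level of 7.25 to 7.70 in P6 females and 7.18 to 7.25 in P6 males, against 7.45 to 8.56 in L3 females and 7.31 to 10.91 in L3 males. The salivary gland list, of which 9 genes were measured, had 7.05 to 7.25 in P6 females and 6.94 to 7.21 in P6 males, against 7.12 to 8.60 in L3 females and 7.43 to 9.22 in L3 males. L3 male replicate 1 was the highest L3 array in the fat body, midgut and salivary gland lists, and it is the array on which CG11382 had 8.10. The tracheal list, of which 7 genes were measured, had 12.53 to 12.77 in L3 females and 12.23 to 12.64 in L3 males. It had 12.96 to 13.15 in P6 females and 12.82 to 13.19 in P6 males, and 12.86 to 12.96 in P20 females and 12.72 to 12.83 in P20 males. Its symbol dys was matched to another gene, Dg, and Gasp stands in the chitin list too. The sum therefore does not read tracheal markers alone. Hemocyte markers went the other way, with 11.17 to 11.47 in P6 females and 11.48 to 11.65 in P6 males, against 12.49 to 13.95 in L3 females and 12.59 to 13.82 in L3 males. The part of these tissues in the peak was not tested.

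The median deviation of the 136 genes from the group mean lay between -0.13 on replicate 3 of the P20 males and 0.14 on replicate 3 of the P6 males, where 100 of the 136 were above the mean. On replicate 3 of the P20 males 44 were above it. A median over genes does not show shifts in opposite directions. CG31626 had 11.93 in P6 male replicate 2 and 8.11 in replicate 4, while CG6118 had 6.07 and 9.83 there. In P6 females, CG6788 had 8.24 and 8.36 in replicates 1 and 2 but 10.50 and 10.15 in replicates 3 and 4. CG31871 went the other way, with 8.02 and 8.31 against 6.23 and 7.31. Array medians over all probe sets lay between 5.04 and 5.18. The number of arrays limits the precision, since depth has no equivalent here. In 36 of the 136 genes all 4 L3 and P20 group means were under 5, near the bottom of a scale that ran from 2.04 to 14.51, and without a background level it is not known which of these were above background there.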

How the data were processed

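RNA of 24 genital disc samples, in 6 groups of stage and sex with 4 replicates each, was measured on Affymetrix arrays. The deposited values are on the log2 scale and were made by the authors with RMA, per the submitters' processing notes. Its version and settings are not given in the sources used here. The table held 18952 probe sets, of which 13647 had 1 gene in the platform annotation. Controls (183) and probe sets with several genes (402) or none (4720) were left out, and where several probe sets read 1 gene, as in 1094 genes, the brightest by its mean over all arrays stood for it, which left 11982 genes. No filter on low values was applied. Names and chromosome arms came from a Release 6 gene table, which 135 of the 136 genes matched; the array annotation and the table may use different builds, and no coordinates or sequences are given.

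Group means were fitted in R 4.3.3 with limma 3.58.1 (lmFit and eBayes, all 24 arrays, 18 residual degrees of freedom). Tests were two-sided. A gene was called when its p, adjusted over the 11982 genes by the method of Benjamini and Hochberg, was under 0.05. The procedure was tested on simulated data. The rule used P6 minus L3 and P6 minus P20, so these have no test in the CG peak genes. The genes and lists were chosen with earlier results of these data known. Named genes follow a rule: the 12 largest of the smallest differences, the 3 highest P6 means, 3 on either side of the threshold, up to 4 per direction in each test, those with several probe sets and adjacent pairs, and up to 6 per pathway list. Genes given by role, those uneven at P6, the remaining sex calls, the pair with opposite calls and the gene families were added after their values were seen. Whether a replicate number pairs a female with a male array was checked through the correlation of their deviations from group means. Same-numbered arrays had r of 0.11, 0.42, 0.24 and 0.40 at P20. They had 0.68, 0.36, 0.31 and 0.07 at L3, and 0.28, 0.09, 0.03 and 0.23 at P6. The pairing was thus not clear for all numbers at any stage, P20 included. Alternatives were median centring, leaving out genes with a mean under 4, the mean of probe sets, thresholds of 1 and 2, a trended and robust fit, only the groups compared, blocks for the replicate number, and leaving out each array.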

Additional observations from a re-analysis of the deposited data

Results flagged for a closer look

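Single arrays stood apart from the other 3 of their group, by Dixon's test at its 95% level, in 15 of the 324 groups of values examined, and chance alone gives about 1 in 20. At L3, CG11382 had 8.10 in male replicate 1 (the others 4.23 to 4.58), CG32694 had 5.80 in male replicate 4 (6.76 to 6.82), and CG12017 had 4.54 in female replicate 3 (5.45 to 5.56). At P6, CG10657 had 12.75 in female replicate 2 (12.64 to 12.65) and 12.32 in male replicate 4 (12.52 to 12.55). CG42329 had 4.77 in P6 female replicate 2 (6.19 to 6.47), and CG11816 had 10.56 in P6 male replicate 1 (11.57 to 11.71). Most of the others were in P20 males. There CG14327 had 9.36 in replicate 1 (8.02 to 8.18), CG12164 had 7.10 in replicate 1 (6.02 to 6.11) and CG43386 had 8.33 in replicate 1 (7.84 to 7.92). CG34382 had 4.07 in P20 male replicate 2 (4.44 to 4.51), and CG33978 had 6.76 in P20 male replicate 3 (7.44 to 7.55). In P20 females CG5273 had 6.77 in replicate 3 (7.06 to 7.09), CG32694 had 6.61 in replicate 4 (6.88 to 6.92) and CG2930 had 4.66 in replicate 4 (5.28 to 5.31).

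Stage steps that differed between the sexes, by limma's test of the interaction, number 12. From L3 to P6 the female minus male difference changed by 1.07 in CG6739 (limma adjusted p = 0.0369) and by -1.53 in CG11380 (limma adjusted p = 0.023). From P6 to P20 it changed upward by 2.93 in CG3108, 2.04 in CG6431 and 1.78 in CG9411. It changed by -2.67 in CG14866, -2.49 in CG12481, -2.35 in CG32694, -1.90 in CG14327, -1.35 in CG13045, -1.34 in CG6739 and -1.09 in CG31145.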

How the results depend on the processing

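The number of CG peak genes was 126 after median centring, 134 without dim genes, 130 with the mean of probe sets, 180 with a threshold of 1 and 103 with a threshold of 2, and 130 to 137 without 1 array. Without 1 array, sex calls numbered 3 to 5 at L3, 4 to 10 at P6 and 13 to 16 at P20, P20 minus L3 calls 53 to 62 in females and 51 to 61 in males, and changes of the sex difference 0 to 3 from L3 to P6 and 9 to 12 from P6 to P20. Pathway list calls were then 45 to 53 (females) and 43 to 52 (males) for P6 minus L3, and 37 to 42 and 38 to 44 for P20 minus P6. In fits to only the groups compared, which have fewer samples, 0 genes were called between the sexes at L3 (4 in the full fit) and 0 in the change from L3 to P6 (2), with 12 at P6 and 18 at P20. Without dim genes, 4 were called in that change. With the replicate number as a block, sex calls were 5, 10 and 15 at L3, P6 and P20. With a separate replicate block within each stage, an alternative added after seeing the data, they were 11, 13 and 21, and the change from L3 to P6 gave 9. At P20 all 14 calls were kept under that block. Of 2675 values of named genes under these alternatives, 2570 kept their side of the threshold, 105 passed no longer and 0 reversed; the causes were not tested. CG34355 and CG12017, P20 minus L3 in females, lost their calls in 9 and 7 alternatives (adjusted p up to 0.641 and 0.108).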
